A study of Mus musculus with 8 samples.

Results

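The genes described here make, remodel and package fatty acids in liver. The set holds 36 named genes, chosen by their place in fatty acid and triglyceride synthesis, but with earlier results of these data known. Of these genes 35 had a probe set annotated with that gene symbol alone, out of 18193 genes measured. Acsl1 was not analysed here. Where a gene had several probe sets, the brightest on average stands for it. The livers came from 4 MTAP+/- mice, heterozygous for Mtap, and from 4 MTAP+/+ mice, the wild type. All 8 were male C57BL/6 animals aged 92 to 101 days, and each liver went on 1 Affymetrix array. No treatment was named for either genotype, and the structure of the altered allele, the breeding and the time of collection are unstated in the labels. The comparison asks which liver transcripts differ when 1 copy of Mtap, the gene of methylthioadenosine phosphorylase, is lost. All levels are log2 signals as the authors made them with RMA, and all differences are MTAP+/- minus MTAP+/+, so a difference of -1 is a halving.

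Liver turns surplus carbohydrate into fat by a pathway that starts when citrate leaves the mitochondrion and is split to acetyl-CoA. Acetyl-CoA carboxylase and fatty acid synthase build palmitate with reducing power from malic enzyme, elongases and desaturases lengthen it and add double bonds, and acyltransferases join the acyl-CoAs to a glycerol backbone. The resulting triglyceride is stored in lipid droplets or exported in very low density lipoprotein. Transcription of these genes is known to follow SREBP-1c, encoded by Srebf1 and driven by insulin, and ChREBP, encoded by Mlxipl and driven by glucose.

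The sequences just upstream of 5 members are shown because the results below turn on these genes. Agpat2, Agpat3 and Plin5 were separated by genotype without overlap, Thrsp was among the lower members, and Fasn, fatty acid synthase, had 1 of the widest ranges over the livers. Each line gives the 250 bases before the RefSeq transcription start, 5′ to 3′ on the gene's strand, from assembly GRCm38.p6. All 5 genes lie on the minus strand. The coordinates are chr2:26604418-26604667 for Agpat2, chr10:78351701-78351950 for Agpat3, chr17:56117549-56117798 for Plin5 (the upstream one of its 2 listed starts), chr7:97417551-97417800 for Thrsp and chr11:120824548-120824797 for Fasn. Capitals mark the letters CCAAT, the box bound by NF-Y, on either strand.
Agpat2: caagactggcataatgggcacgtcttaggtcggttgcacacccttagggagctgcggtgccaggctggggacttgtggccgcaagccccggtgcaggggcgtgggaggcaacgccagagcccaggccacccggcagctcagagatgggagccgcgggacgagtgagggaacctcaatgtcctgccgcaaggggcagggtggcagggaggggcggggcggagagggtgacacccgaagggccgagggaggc
Agpat3: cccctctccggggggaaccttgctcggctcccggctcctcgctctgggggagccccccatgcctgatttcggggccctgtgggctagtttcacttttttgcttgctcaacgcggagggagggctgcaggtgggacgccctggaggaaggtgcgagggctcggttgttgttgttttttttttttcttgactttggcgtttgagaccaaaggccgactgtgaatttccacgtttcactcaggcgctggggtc
Plin5: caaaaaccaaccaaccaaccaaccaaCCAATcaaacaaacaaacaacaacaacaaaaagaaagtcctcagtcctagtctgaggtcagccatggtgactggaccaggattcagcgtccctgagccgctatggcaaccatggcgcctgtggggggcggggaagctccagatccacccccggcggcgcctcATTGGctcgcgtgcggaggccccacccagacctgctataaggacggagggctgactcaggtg
Thrsp: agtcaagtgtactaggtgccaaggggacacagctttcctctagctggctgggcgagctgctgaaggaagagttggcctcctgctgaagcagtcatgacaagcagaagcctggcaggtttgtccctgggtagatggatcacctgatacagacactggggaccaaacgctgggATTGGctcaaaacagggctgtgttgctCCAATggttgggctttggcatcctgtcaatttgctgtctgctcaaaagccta
Fasn: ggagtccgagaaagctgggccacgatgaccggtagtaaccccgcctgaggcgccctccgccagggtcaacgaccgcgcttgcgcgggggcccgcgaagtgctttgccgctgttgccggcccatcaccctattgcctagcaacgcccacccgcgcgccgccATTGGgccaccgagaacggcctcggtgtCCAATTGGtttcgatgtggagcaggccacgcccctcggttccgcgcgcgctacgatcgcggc

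CCAAT occurred in the windows of Fasn, Thrsp and Plin5 and not in those of Agpat2 and Agpat3. In Fasn the matches began at -90, -62 and -59 relative to the start, and the last of these overlapped its neighbour on the opposite strand. In Thrsp they began at -79 and -52, and in Plin5 at -224 and -62. RefSeq windows of 250 bases before to 50 after the start were at hand for 29 of the 35 measured members, 38 windows in all, but not for Elovl3, Scd1, Scd2, Fads1, Dgat1 or Dgat2. Of these windows 17 (44.7%) held CCAAT on either strand, against 37.4% of all 32851 windows of the same length. On the sense strand alone the shares were 21.1% of member windows and 21.1% of all windows. The E-box CACGTG, which reads the same on both strands, was in 4 member windows (10.5%, against 7.15% of all), those of Elovl5, Lpin2, Mlxipl and Slc25a1. The sterol response element core TCACNCCAC, searched on both strands, was in 1 member window, of Mlxipl (2.63%, against 1.24% of all). In member windows 0 matches of a motif shared bases with a match of another motif.

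Mtap itself served as the check of the labels. It had 6.72, 6.92, 6.99 and 6.95 in MTAP+/- livers, against 7.82, 7.57, 7.69 and 7.69 in MTAP+/+ livers, 57.6% of the wild-type level (limma adjusted p = 0.0281). The hepatocyte markers were bright on every array, with a mean over 8 genes of 13.3 to 13.5 in MTAP+/- and 13.3 to 13.4 in MTAP+/+ livers. Of 6 adipocyte genes measured, the defining genes Adipoq (2.34 to 2.56 in MTAP+/- and 2.32 to 2.53 in MTAP+/+) and Lep (2.89 to 3.04 in MTAP+/- and 2.76 to 3.01 in MTAP+/+) lay below the array medians of 3.91 to 3.97. Retn, Fabp4, Cd36 and Lipe lay above them in every liver, and the mean over the 6 was 4.79 to 4.89 in MTAP+/- and 4.69 to 4.79 in MTAP+/+ livers. Macrophage and Kupffer cell genes leaned higher in MTAP+/- livers, with 0 of 8 passing and 3 listed higher at an unadjusted p under 0.05 (37.5%, against 4.40% of all genes), Adgre1 at 0.78 without overlap, Cd68 at 0.54 and Cd5l at 0.42. Of the rest of the 8, Lyz2 was at 0.44, Vsig4 at 0.05, Csf1r at -0.017 and Clec4f at -0.27. Marco was at 0.72, or -0.44 without MTAP+/- replicate 2. The median difference over the 8 was 0.43, and 0.30 without that liver. The part of macrophage RNA in the members' differences was not tested. In whole tissue, fewer cells of a type and less RNA per cell cannot be told apart. The labels say nothing of litters or batches, so their part cannot be told apart from genotype. The p-values set the genotype difference against the spread between animals of the same genotype.

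No member passed the threshold between genotypes. Of 35 members 0 had an adjusted p under 0.05 in limma, against 0.0495% of all genes tested (0.0275% higher and 0.0220% lower in MTAP+/-), and the smallest adjusted p was 0.123, of Elovl3. At an unadjusted p under 0.05 limma listed 9 members, 25.7% of the set, against 9.14% of all genes. These were 6 lower in MTAP+/- (4.74% of all genes were listed lower), namely Elovl3, Plin5, Agpat2, Agpat3, Me1 and Thrsp, and 3 higher (4.40% of all genes), namely Acsl4, Elovl2 and Lpin2. Those 9 kept their sign under all 16 settings tried. They were picked from these same data, and dim genes left out, other variance settings and the replicate block leave a difference unchanged. The kept signs are therefore a description and not a test. The set was chosen with earlier results of these data known and holds a smaller share of dim genes than the whole. The share of 25.7% is therefore a description and not a test. The genotypes did not overlap for 4 members, all lower in MTAP+/- (Elovl3, Plin5, Agpat2 and Agpat3), against 4.64% of all genes without overlap (1.95% higher and 2.70% lower). By sign 23 members were higher in MTAP+/- and 12 lower, where 45.3% of all genes were higher. With MTAP+/- replicate 2 left out 13 members were higher, against 48.3% of all genes. The median difference was 0.03 over the members and -0.02 over all genes, and without that liver -0.08 and -0.0068.

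**Figure D1:**
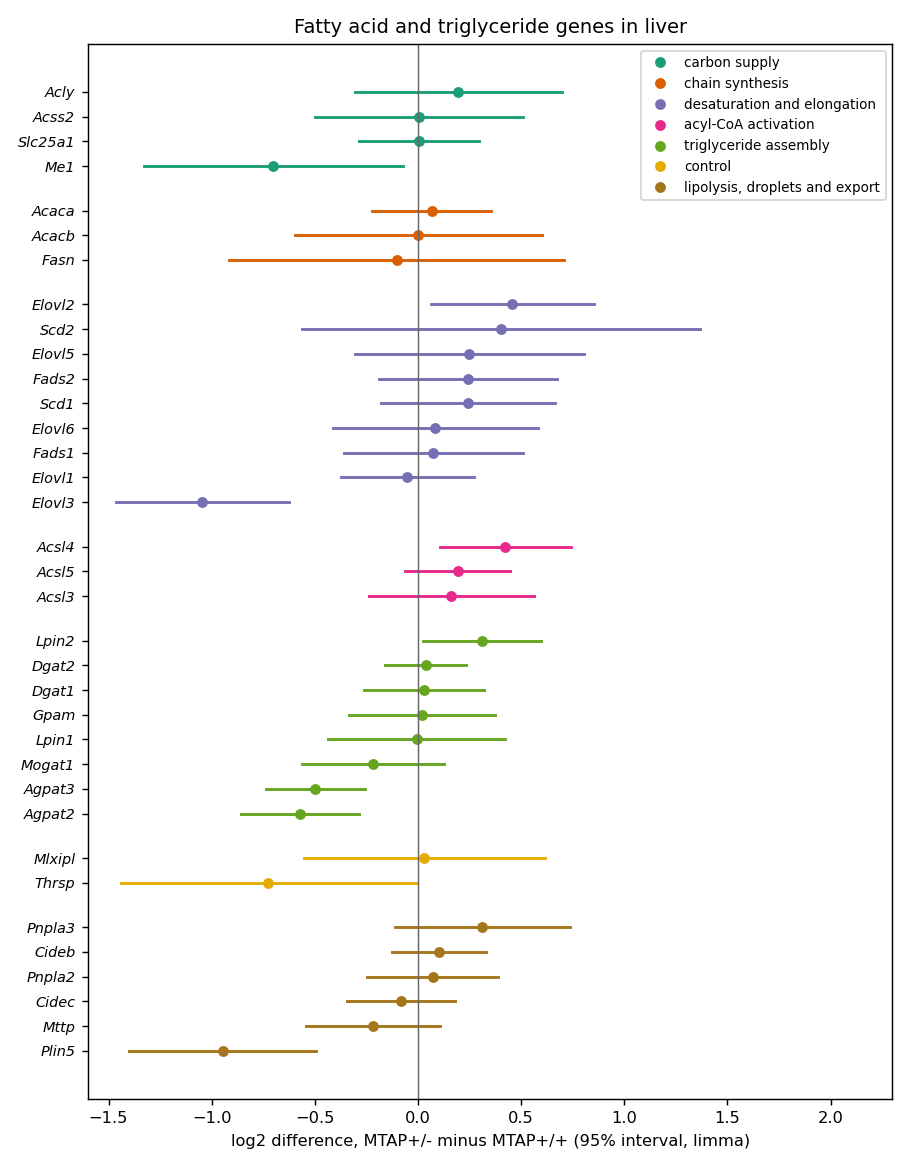
Log2 difference (MTAP+/- minus MTAP+/+, horizontal axis) of each of the 35 measured members, grouped by role, with its 95% interval from limma. Elovl3, Plin5, Agpat2, Agpat3, Me1 and Thrsp have intervals below 0, Elovl2, Acsl4 and Lpin2 above 0, and the other 26 span 0.

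Elongation and desaturation genes held the lead member. Elovl3 encodes an elongase of saturated and monounsaturated very long chain fatty acids, whose liver transcript is known to differ between the sexes and over the day. It had 10.78, 10.05, 10.27 and 10.96 in MTAP+/- livers, against 11.57, 11.32, 11.70 and 11.65 in MTAP+/+ livers. Every MTAP+/- liver lay below the lowest MTAP+/+ liver. The difference was -1.04 ± 0.19 (SE), 48.5% of the wild-type level with a 95% interval of 36.3 to 64.8%, and limma's adjusted p was 0.123. With 1 array left out at a time it ran from -1.19 to -0.89.

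Elovl2, which elongates polyunsaturated fatty acids toward docosahexaenoic acid, leaned the other way. It had 10.20, 10.79, 10.30 and 10.75 in MTAP+/- livers, against 9.66, 9.98, 10.26 and 10.31 in MTAP+/+ livers. The lowest MTAP+/- values fell inside the MTAP+/+ range, and the difference was 0.46 ± 0.18 (SE, limma adjusted p = 0.461). Elovl6, which extends palmitate to stearate, had 9.15, 9.63, 8.93 and 8.51 in MTAP+/- and 8.65, 9.32, 9.14 and 8.77 in MTAP+/+ livers. The genotypes were interleaved, with a difference of 0.08 and a 95% interval of -0.41 to 0.58. Its 2 other probe sets had differences of -0.08 and 0.68, the second at a mean signal of 4.75. Elovl5, the elongase of polyunsaturated C18 acids, was at 0.25 and the ubiquitous Elovl1 at -0.05, both with intervals that spanned 0.

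The stearoyl-CoA desaturases place the first double bond in saturated chains. Scd1, the liver form, had 13.67, 13.92, 12.91 and 13.60 in MTAP+/- livers, against 13.25, 13.42, 13.40 and 13.06 in MTAP+/+ livers. MTAP+/- replicates 1, 2 and 4 lay above all wild-type livers and MTAP+/- replicate 3 below them, for a difference of 0.24 ± 0.19 (SE, limma adjusted p = 0.765). Scd2, a form known mainly from other tissues and the young liver, had 4.19, 6.33, 4.12 and 4.14 in MTAP+/- livers, against 4.79, 4.06, 3.94 and 4.37 in MTAP+/+ livers. Its signal was near the array medians in all livers but MTAP+/- replicate 2, and its difference of 0.40 became -0.14 without that liver. The front-end desaturases Fads1 and Fads2, which act on polyunsaturated acids, were at 0.07 and 0.24, with intervals of -0.36 to 0.51 and -0.19 to 0.67. Without MTAP+/- replicate 2 the differences were 0.046 for Fads2, 0.074 for Elovl5 and 0.11 for Scd1. Fads1 lay between 10.23 and 11.28 in MTAP+/- and 10.43 and 10.74 in MTAP+/+ livers, and Fads2 between 8.93 and 9.98 in MTAP+/- and 9.01 and 9.43 in MTAP+/+ livers. A second Fads2 probe set of similar brightness was at -0.22.

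Both acyltransferases of phosphatidic acid synthesis in the set lay lower in MTAP+/- livers without overlap, though neither passed the adjusted threshold. Their paralogues outside the set, named after their values were seen, all overlapped between genotypes. Agpat1 was at -0.025, Agpat4 at 0.096 and Agpat5 at -0.046. Agpat2 encodes the 1-acylglycerol-3-phosphate acyltransferase whose loss causes generalised lipodystrophy in people and mice. It had 10.33, 10.76, 10.53 and 10.48 in MTAP+/- livers, against 11.37, 11.09, 11.03 and 10.91 in MTAP+/+ livers. The ranges did not touch, and the difference was -0.57 ± 0.13 (SE), 67.2% of wild type (95% interval 55.2 to 82.0%, limma adjusted p = 0.226). Agpat3, a paralogue with a preference for polyunsaturated acyl groups, had 8.79, 8.67, 8.94 and 8.65 in MTAP+/- livers, against 9.31, 9.41, 9.21 and 9.10 in MTAP+/+ livers. It too had no overlap, at -0.50 ± 0.11 (SE), 70.9% of wild type (limma adjusted p = 0.213). The other probe sets of Agpat3 were lower by sign as well, at -0.10, -0.30 and -0.39. When probe sets ending in _x_at, _s_at or _a_at were dropped, the first of these stood for the gene (-0.10, limma adjusted p = 0.825). The mean of all Agpat3 probe sets gave -0.32. Leaving out 1 array at a time kept the Agpat2 difference between -0.65 and -0.48 and that of Agpat3 between -0.56 and -0.45.

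The steps before and after these acyltransferases showed no such separation. Gpam, the mitochondrial enzyme that acylates glycerol-3-phosphate, had 10.58, 11.15, 10.54 and 10.46 in MTAP+/- and 10.87, 10.72, 10.64 and 10.43 in MTAP+/+ livers. Its difference was 0.018 with a 95% interval of -0.34 to 0.37. Lpin2, a phosphatidate phosphatase, had 9.12, 8.96, 9.29 and 9.06 in MTAP+/- livers, against 8.52, 8.73, 9.04 and 8.91 in MTAP+/+ livers. MTAP+/+ replicate 3 lay within the heterozygous range, and the difference was 0.31 ± 0.13 (SE, limma adjusted p = 0.501). The mean of its probe sets gave 0.16. Its relative Lpin1 was at -0.0060, with an interval of -0.43 to 0.42.

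Dgat2, which adds the last acyl chain to diacylglycerol, was the steadiest member. It had 10.96, 10.93, 10.98 and 10.80 in MTAP+/- and 10.90, 10.87, 10.84 and 10.91 in MTAP+/+ livers, a range over all 8 of 0.173 log2 units. The 95% interval of its difference, -0.16 to 0.24, is 89.6 to 118% of the wild-type level. Dgat1, an enzyme with the same reaction and an unrelated sequence, was at 0.03 (interval -0.26 to 0.32). Mogat1, a monoacylglycerol acyltransferase, was at -0.22 (-0.084 without MTAP+/- replicate 2) with signals of 3.06 to 3.65 in MTAP+/- and 3.36 to 3.91 in MTAP+/+ livers, at or below the array medians, where RMA is known to compress differences.

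Plin5, a perilipin that coats droplets in oxidative tissues and tethers them to mitochondria, had 7.58, 7.04, 7.77 and 7.60 in MTAP+/- livers. The MTAP+/+ livers had 8.90, 8.63, 8.18 and 8.06. All heterozygous values lay below all wild-type values, and the difference was -0.95 ± 0.21 (SE), 51.9% of wild type with a 95% interval of 37.9 to 71.1% (limma adjusted p = 0.213). A second Plin5 probe set gave -0.97, and leaving out 1 array gave -1.07 to -0.79. Mttp, the transfer protein that loads lipid onto nascent apolipoprotein B, had 10.43, 9.85, 10.52 and 10.27 in MTAP+/- and 10.34, 10.66, 10.46 and 10.48 in MTAP+/+ livers. MTAP+/- replicate 2 was the lowest, and the difference was -0.22 (interval -0.54 to 0.11), or -0.079 without that liver. The droplet and lipase genes Pnpla2 (adipose triglyceride lipase) at 0.07, Pnpla3 at 0.31, Cideb, a factor in lipoprotein lipidation, at 0.10 and Cidec, which enlarges droplets, at -0.08 all had intervals that spanned 0. Without MTAP+/- replicate 2 Pnpla3 was at 0.14. Cidec lay between 2.50 and 2.93 in MTAP+/- and 2.72 and 2.98 in MTAP+/+ livers, below the array medians.

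Me1 and Thrsp shared a profile over the livers. Me1, the cytosolic malic enzyme that supplies NADPH, had 10.34, 10.15, 9.86 and 9.19 in MTAP+/- livers, against 10.96, 10.73, 10.85 and 9.81 in MTAP+/+ livers. Thrsp, known as Spot 14, a nuclear and cytosolic promoter of lipogenesis induced by thyroid hormone, had 11.57, 11.66, 11.38 and 10.29 in MTAP+/- livers, against 12.27, 12.09, 12.30 and 11.14 in MTAP+/+ livers. For both genes replicate 4 was the lowest liver of its genotype, and MTAP+/+ replicate 4 lay inside the heterozygous range while the other wild-type livers lay above it. The differences were -0.70 ± 0.28 and -0.73 ± 0.32 (SE), with limma adjusted p of 0.481 and 0.539. Second probe sets of these genes gave -0.48 for Me1 and -0.79 for Thrsp, and another Thrsp probe set, at a mean signal of 5.74, gave -0.15. Without MTAP+/- replicate 4 the Thrsp difference was -0.41. Replicate 4 was also the lowest liver of each genotype for the members Fasn, Gpam, Lpin1 and Mlxipl and, outside the set, for Pklr.

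**Figure D2:**
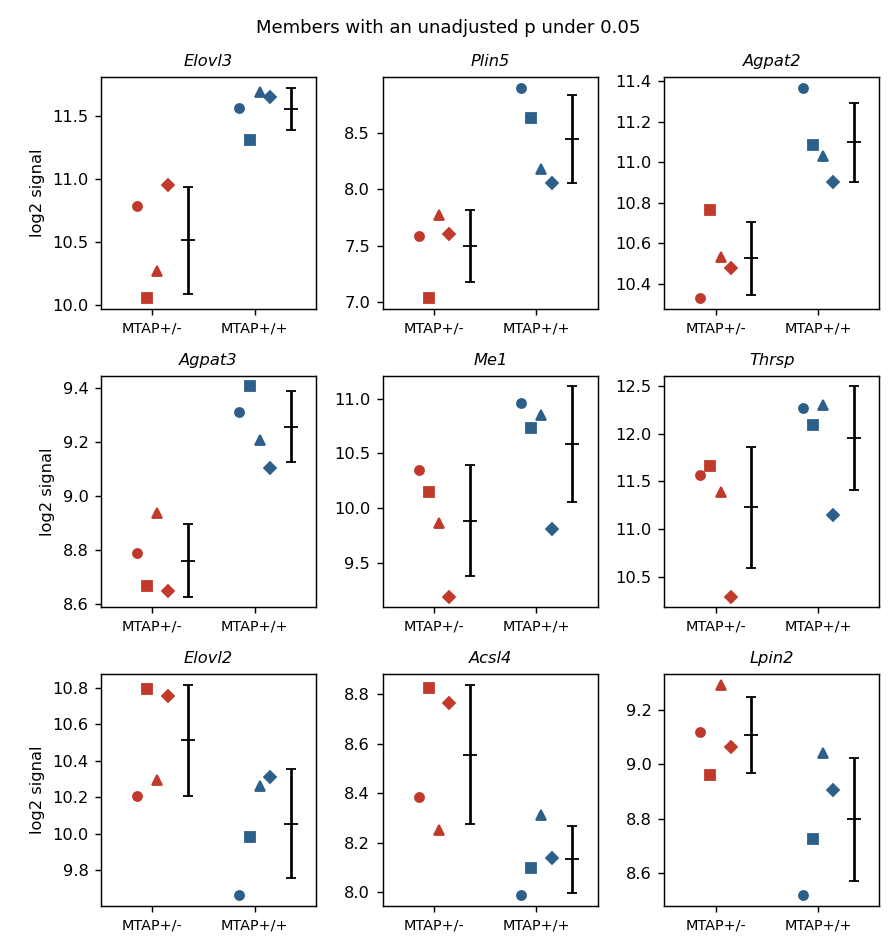
Log2 signal (vertical axis) of the 9 members with an unadjusted p under 0.05 in MTAP+/- (red) and MTAP+/+ (blue) livers, with circles, squares, triangles and diamonds for replicates 1 to 4 and a black bar for mean ± SD (n = 4). Elovl3, Plin5, Agpat2 and Agpat3 show no overlap between genotypes, and in Me1 and Thrsp the diamond is the lowest point of each genotype.

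The core steps of the pathway did not pass the test in either direction. Fasn had 9.49, 10.77, 9.39 and 8.89 in MTAP+/- livers, against 10.40, 9.71, 9.76 and 9.08 in MTAP+/+ livers. The range within either genotype exceeded the difference of -0.10, whose interval ran from -0.91 to 0.71. Acaca, the cytosolic acetyl-CoA carboxylase, had 7.57, 8.04, 7.53 and 7.56 in MTAP+/- and 7.77, 7.59, 7.59 and 7.48 in MTAP+/+ livers, a difference of 0.07 (interval -0.22 to 0.36). Acacb, the mitochondrial form whose malonyl-CoA restrains fatty acid oxidation, was at 0.0022 with an interval of -0.60 to 0.60.

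Acly, which splits citrate into acetyl-CoA, had 10.31, 11.08, 9.99 and 10.20 in MTAP+/- and 10.55, 9.86, 10.35 and 10.03 in MTAP+/+ livers. Its genotypes overlapped throughout, at 0.19 with an interval of -0.31 to 0.70. The citrate carrier Slc25a1 was at 0.0046 (interval -0.28 to 0.29) and Acss2, which activates acetate, at 0.0055 (interval -0.50 to 0.51). Mlxipl had 8.37, 9.30, 8.28 and 7.94 in MTAP+/- and 8.73, 8.74, 8.21 and 8.09 in MTAP+/+ livers, a difference of 0.03 (interval -0.55 to 0.61). Second probe sets of opposite sign were dim for Acly (-0.065), Acaca (-0.20), Acacb (-0.013) and Pnpla2 (-0.044), at mean signals of 2.82 to 3.62, and brighter for Gpam (-0.045, mean signal 5.48) and Dgat2 (-0.099, mean signal 8.67).

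The 3 acyl-CoA synthetases measured among the members, which activate free fatty acids, were higher by sign, as were 45.3% of all genes, and 1 of them was listed at an unadjusted p under 0.05. Acsl6, outside the set and named after its values were seen, was at -0.00079. Acsl4, selective for arachidonic acid, had 8.38, 8.82, 8.25 and 8.77 in MTAP+/- livers, against 7.99, 8.10, 8.31 and 8.14 in MTAP+/+ livers. Only MTAP+/- replicate 3 lay below the highest wild-type liver, and the difference was 0.42 ± 0.14 (SE, limma adjusted p = 0.396). A dimmer Acsl4 probe set went the other way, at -0.28, a further one was at 0.11, and the mean of all gave 0.085. Acsl5 had 10.83, 11.12, 10.72 and 11.09 in MTAP+/- and 10.76, 10.70, 10.85 and 10.67 in MTAP+/+ livers, a difference of 0.19 with an interval of -0.06 to 0.45, and Acsl3 was at 0.16, or 0.025 without MTAP+/- replicate 2.

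MTAP+/- replicate 2 stood apart in this set. It was the highest of the 8 livers for 22 members, 62.9% of the set, while it was the highest for 12.0% of all genes. The 22 comprised 8 of the 9 desaturases and elongases, all but Elovl3, together with 3 of 4 genes of carbon supply (all but Me1), both Acaca and Fasn, all 3 acyl-CoA synthetases, Gpam, Lpin1, Mlxipl, Pnpla2, Pnpla3 and Cideb. The same liver was the lowest of the 8 for 5 members (14.3%, against 3453 of the 18193 genes measured), namely Elovl3, Plin5, Mogat1, Cidec and Mttp. The median deviation of the 35 members from their own means was 0.40 in this liver, against -0.14 to -0.014 in the other MTAP+/- livers and -0.12 to 0.16 in the MTAP+/+ livers. Without it Fasn had a difference of -0.48, Mlxipl -0.24, Acacb -0.21, Lpin1 -0.15, Fads1 -0.14, Gpam -0.14 and Acss2 -0.14, each with an adjusted p of 0.505 or above in limma.

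**Figure D3:**
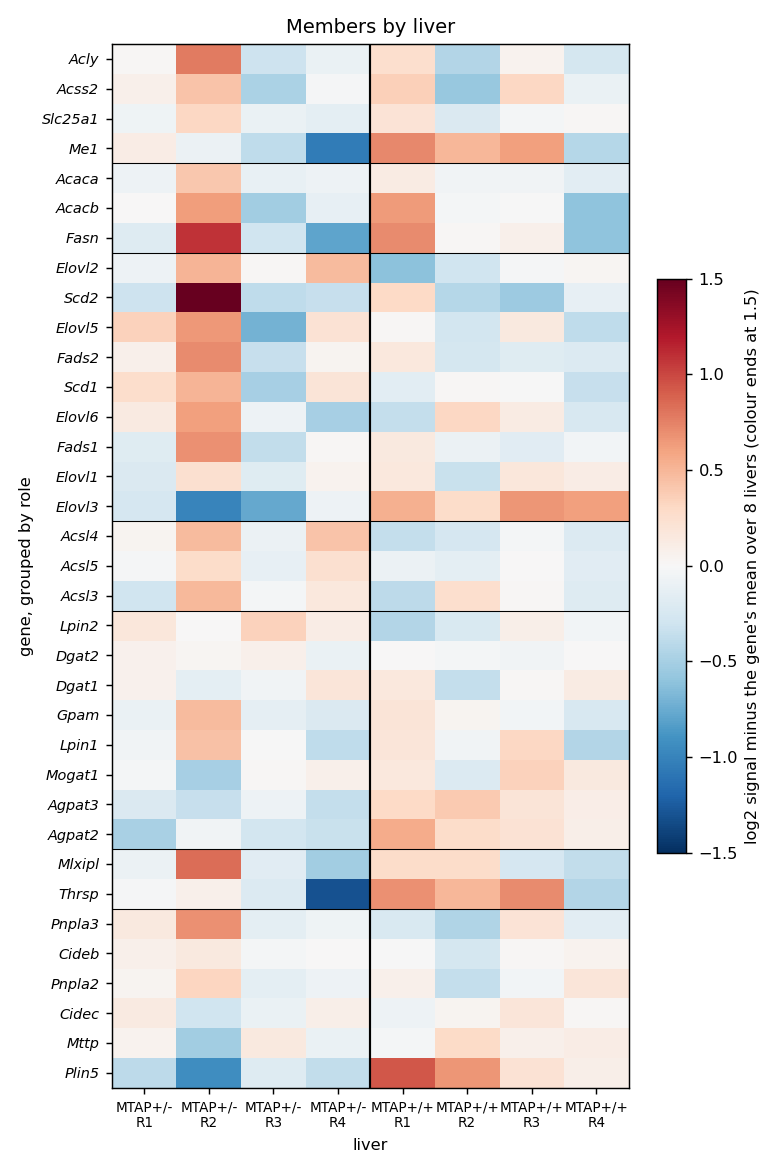
Each row is a member and each column a liver, MTAP+/- replicates 1 to 4 and then MTAP+/+ replicates 1 to 4, with colour for the log2 signal minus the gene's mean over the 8 livers. The column of MTAP+/- replicate 2 is the reddest in most rows. Elovl3, Agpat2, Agpat3 and Plin5 lie below their means in all 4 MTAP+/- columns. Some of these cells are near white, such as Agpat2 in MTAP+/- replicate 2 (10.76, against a mean of 10.81).

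Within a genotype the members' median spread was wider than that of all genes. The median SD over 4 livers was 0.320 in MTAP+/- and 0.236 in MTAP+/+ for the members, against 0.161 and 0.174 for all genes. Brightness was not matched. A mean signal of at least 5 was reached by 31 of the 35 members, but by 9376 of the 18193 genes. The SD was larger in MTAP+/- than in MTAP+/+ for 25 of the 35 members (71.4%, and 46.6% of all genes). Without MTAP+/- replicate 2 the members' median SD in that genotype was 0.165, against 0.126 for all genes. It exceeded the wild-type SD for 13 members (37.1%), against 34.8% of all genes.

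**Figure D4:**
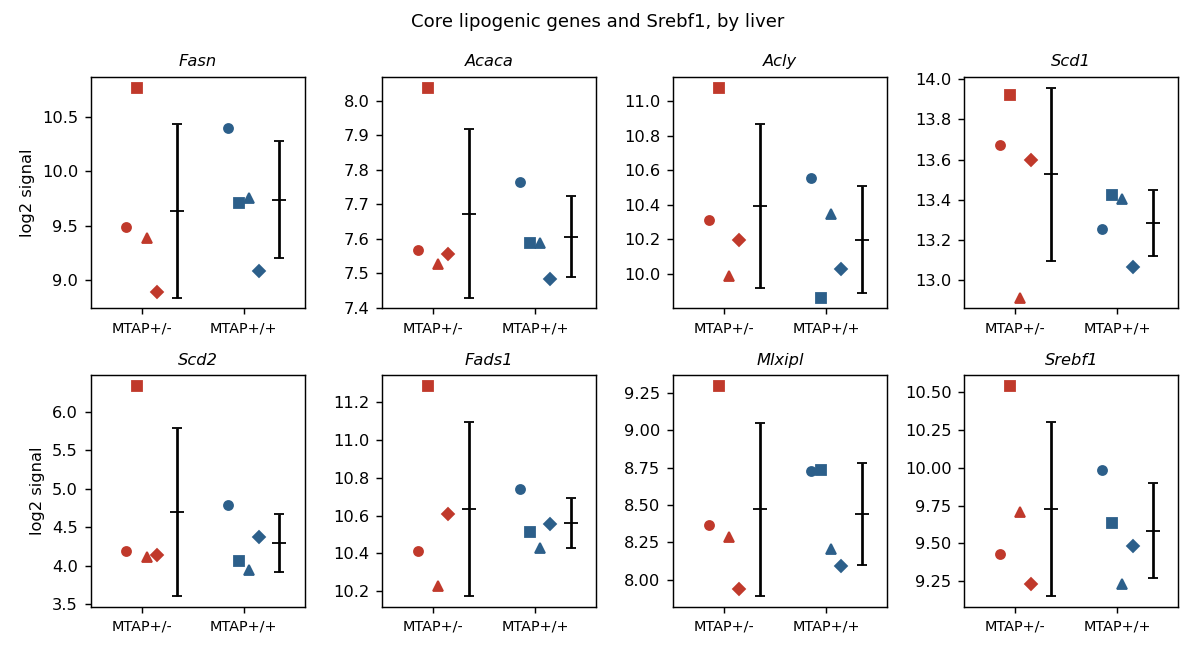
Log2 signal (vertical axis) of 7 core members and Srebf1 in MTAP+/- (red) and MTAP+/+ (blue) livers, with circles, squares, triangles and diamonds for replicates 1 to 4 and a black bar for mean ± SD (n = 4). The red square, MTAP+/- replicate 2, is the highest point in every panel, but the panels are a selection. Of members not drawn here, Me1 and Acacb were highest in MTAP+/+ replicate 1 and Dgat2 in MTAP+/- replicate 3. Mttp, also not drawn, was lowest in MTAP+/- replicate 2.

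Other measures moved with that liver. For the control transcripts its 3′ signal exceeded the 5′ signal by 0.713, against 1.08 to 1.12 in the other MTAP+/- livers and 0.880 to 1.04 in MTAP+/+ livers. This measure is known to move with RNA integrity and labelling. The mean over 8 macrophage and Kupffer cell genes was 9.08 there, against 8.29 to 8.85 in the other MTAP+/- livers and 8.12 to 8.43 in MTAP+/+ livers. MTAP+/- replicate 2 was the highest liver for 5 of those 8 (Adgre1, Cd68, Lyz2, Marco and Cd5l), with Marco at 9.97 and Adgre1 at 8.93. It was the lowest for 2, Clec4f at 7.06 and Vsig4 at 8.20. All 8 lay above the array medians in every liver. The mean over the 6 adipocyte genes measured was 4.89 there, against 4.79 to 4.87 in the other MTAP+/- livers and 4.69 to 4.79 in MTAP+/+ livers. That liver was the highest for 0 of those 6 and the lowest for 1, Retn. The endothelial mean was 6.41 there, against 5.95 to 6.23 in the other MTAP+/- and 5.88 to 6.16 in MTAP+/+ livers. The hepatocyte mean was 13.46, against 13.25 to 13.33 and 13.27 to 13.36. Its stellate cell and cholangiocyte means lay within the range of the other livers. The part of RNA quality and of macrophage RNA in the members' values was not tested.

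**Figure D5:**
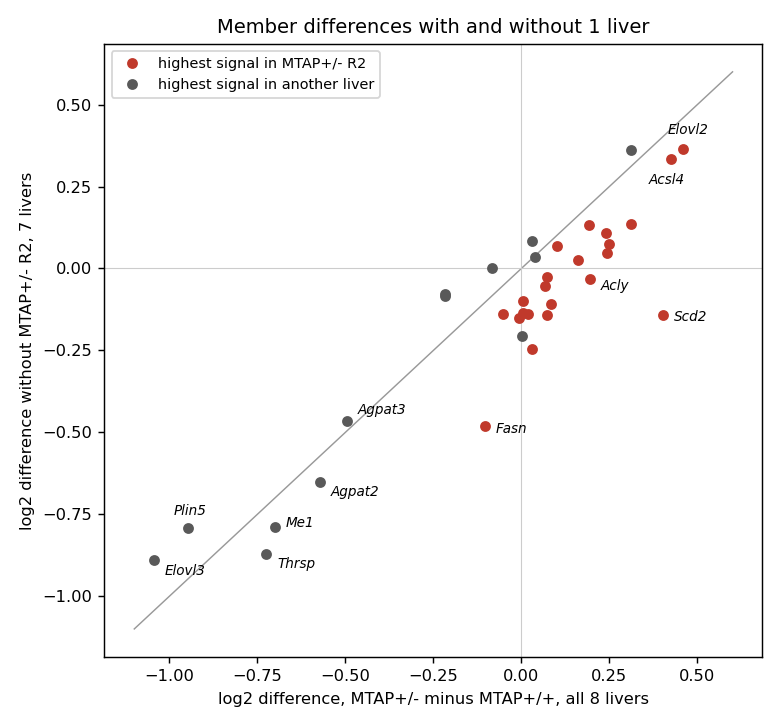
Log2 difference of each member over all 8 livers (horizontal axis) against that without MTAP+/- replicate 2 (vertical axis), with the line of equality in grey. Red points are the 22 members highest in that liver, so they must lie below the line. Elovl3, Plin5, Agpat2, Agpat3, Me1 and Thrsp stay below 0 on both axes.

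Regulators of lipogenesis were read from the same fit. Of 23 measured, with a median difference of 0.0055, 0 passed. At an unadjusted p under 0.05, 1 was listed (4.35%, against 9.14% of all genes). That gene was Insig2, which holds SREBP precursors in the endoplasmic reticulum, with 10.10, 9.76, 10.15 and 10.07 in MTAP+/- livers, against 11.19, 10.94, 11.63 and 10.70 in MTAP+/+ livers. The genotypes did not overlap, at -1.09 ± 0.18 (SE, limma adjusted p = 0.110). With MTAP+/+ replicate 4 left out limma's adjusted p was 0.0474, and with MTAP+/- replicate 2 left out instead it was 0.107. Next in order of p came Insr at 0.26, Ppargc1b at 0.52, Mbtps2 at 0.24 and Mlx, the partner of ChREBP, at -0.19. Srebf1, named after its values were seen, had 9.43, 10.54, 9.71 and 9.23 in MTAP+/- and 9.99, 9.64, 9.23 and 9.48 in MTAP+/+ livers. Like Fasn, it was highest in MTAP+/- replicate 2 and next highest in MTAP+/+ replicate 1, and its difference was 0.14 (limma adjusted p = 0.917).

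Among other enzymes of the pathway 0 of 28 measured passed and 3 were listed at an unadjusted p under 0.05, 10.7%, near the share of all genes. They were Gpat3, a microsomal glycerol-3-phosphate acyltransferase, at 0.51, Hacd2, a dehydratase of the elongation cycle, at -0.37 and Mcat, of mitochondrial fatty acid synthesis, at -0.25, followed by Oxsm at 0.28 and Elovl7 at 0.20. The median over that list was 0.0069. Of 17 other droplet and export genes 0 passed and 1 was listed (5.88%, against 9.14% of all genes). It was Ces1d, a carboxylesterase of droplet triglyceride, at -0.38 without overlap of the genotypes. Mgll at -0.44, Apob at 0.36, Abhd5, the activator of adipose triglyceride lipase, at -0.27 and Fitm1 at -0.38 followed, none of them listed. Without MTAP+/- replicate 2 Mgll was at -0.26 and Fitm1 at -0.14. G0s2, an inhibitor of that lipase named after its values were seen, was at 8.44 in MTAP+/- replicate 2, against 9.77 to 10.31 in the other MTAP+/- livers and 9.75 to 10.24 in MTAP+/+ livers.

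Genes whose liver transcripts follow feeding and fasting gave values in both directions. Of 14 measured 0 passed and 4 were listed at an unadjusted p under 0.05, 28.6% against 9.14% of all genes. This list was chosen with earlier results of these data known, so that share is a description and not a test. Pdk4, a kinase raised by fasting, had 5.49, 5.99, 4.95 and 5.63 in MTAP+/- livers, against 7.63, 6.97, 6.94 and 6.49 in MTAP+/+ livers (difference -1.49, limma adjusted p = 0.110). The ranges did not overlap, and with MTAP+/+ replicate 4 left out limma's adjusted p was 0.0474, at -1.67. With MTAP+/- replicate 2 left out instead it was 0.058, at -1.65. G6pc, of glucose release, was at -0.65 and Pklr, a target of ChREBP raised by carbohydrate feeding, at -0.61. Cpt1a, the gate of mitochondrial fatty acid oxidation, was at 0.28 without overlap. Ppargc1a, a coactivator raised by fasting, was at 0.51 with an interval of -0.28 to 1.29 (limma adjusted p = 0.728), or 0.20 without MTAP+/- replicate 2. The fatty acid uptake gene Cd36, listed here among adipocyte genes, was at 0.60. Their part in the members' values was not tested.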

How the data were processed

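Liver RNA of 8 mice, extracted with TRIzol and biotin-labelled according to the labels, was hybridised to 1 Affymetrix array per animal. The authors deposited log2 signals, made with RMA per the submitters' processing notes; no software or version is named there. That the scale is log2 was read from its range, 1.64 to 14.7. The array count, 4 per genotype, limits the precision.

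Of 45101 probe sets 64 controls were left out. Platform annotation gave 1 symbol for 34945, several for 932 and none for 9160, and each of 18193 genes took its brightest probe set. Names and promoters came from RefSeq (GRCm38.p6), used for no array coordinates. Genotypes were compared over all genes with limma 3.58.1 (R 4.3.3, lmFit and eBayes, two-sided), with Benjamini-Hochberg adjustment over all genes and a threshold of 0.05. The fit was tested on simulated data. The members and lists were chosen with earlier results of these data known.

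Values in every liver are given for the 10 members of smallest p, the 6 of widest range and 9 central steps, and up to 5 genes of smallest p are named per other list. Markers, Srebf1, G0s2, Acsl6, Agpat1, Agpat4 and Agpat5 were named after their values were seen. Alternatives tried were averaging a gene's probe sets, no cross-hybridising probe sets, dim genes left out, other variance settings, array weights, renewed quantile normalisation, centring, a replicate block, all probe sets, and each array left out.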

Additional observations from a re-analysis of the deposited data

Results flagged for a closer look

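Single livers lay far from the others of their genotype for 3 members, and chance marks about 1 in 20 groups of 4 by this gap test, run here on 70 groups of members. Acaca was at 8.04 in MTAP+/- replicate 2, against 7.57 in the next liver, and Scd2 was at 6.33 in that liver, against 4.19 in the next. Elovl1 was low in MTAP+/+ replicate 2, at 8.29, against 8.74 in the next. Of the other genes named, the macrophage and Kupffer cell gene Vsig4 was low in MTAP+/- replicate 2, at 8.20, against 9.74 in the next.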

How the results depend on the processing

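No member passed the threshold under any alternative, including the fit over all probe sets, and the smallest adjusted p of any member was 0.0872, of Elovl3 with array weights. The 9 members with an unadjusted p under 0.05 were among 18 that kept their sign throughout, though some settings cannot change a difference. The 17 others changed sign at least once without being called. Signs turned with probe sets averaged per gene (Acaca -0.066, Acacb -0.0056, Gpam -0.013, Dgat2 -0.030). Leaving out probe sets ending in _x_at, _s_at or _a_at turned Pnpla2 (-0.044). Array weights turned Slc25a1 (-0.058), Acss2 (-0.15), Acacb (-0.074), Fads1 (-0.040), Elovl6 (-0.013), Gpam (-0.040), Mlxipl (-0.037) and Pnpla2 (-0.017). Renewed quantile normalisation turned Lpin1 (0.0027). Centring arrays on their medians turned Slc25a1 (-0.014), Acss2 (-0.014), Acacb (-0.017) and Gpam (-0.0010). With 1 array left out at a time the differences of members that changed sign ran as follows: Acss2 -0.18 to 0.16, Acacb -0.21 to 0.21, Elovl1 -0.17 to 0.012, Lpin1 -0.15 to 0.12, Slc25a1 -0.099 to 0.074, Acly -0.034 to 0.33, Acaca -0.055 to 0.12, Scd2 -0.14 to 0.60, Fads1 -0.14 to 0.21, Elovl6 -0.11 to 0.27, Gpam -0.14 to 0.093, Mlxipl -0.24 to 0.21, Pnpla2 -0.037 to 0.14, Cidec -0.14 to 0.0015, Fasn -0.48 to 0.14, Dgat1 -0.084 to 0.088. Without a change of sign, leaving out 1 array moved Scd1 (0.11 to 0.45), Fads2 (0.046 to 0.40), Elovl5 (0.074 to 0.53), Acsl3 (0.025 to 0.29), Mogat1 (-0.32 to -0.084), Dgat2 (0.019 to 0.077), Thrsp (-0.99 to -0.41), Pnpla3 (0.14 to 0.43), Cideb (0.033 to 0.13) and Mttp (-0.30 to -0.079) by over 1.5 times. The cause was not tested. The count of genes called over all genes, 9 as reported, was 4 with probe sets averaged per gene, 4 with dim genes left out, 6 with the replicate block and 3 to 20 with 1 array left out. Members listed higher at an unadjusted p numbered 3 as reported, 1 with the mean of probe sets and 1 to 5 with 1 array left out, and members listed lower 4 to 6. Members higher by sign numbered 23 as reported, 15 with array weights, which gave MTAP+/- replicate 2 the lowest weight (0.516), and 13 to 24 with 1 array left out. Other pathway genes called numbered 0 to 1 with 1 array left out (Insig2, at an adjusted p of 0.0474 without MTAP+/+ replicate 4). Windows with CCAAT numbered 17 on either strand and 8 on the sense strand alone (21.1%, against 21.1% of all windows). Same-numbered replicates had deviations from their genotype means that correlated at -0.10, 0.15, 0.03 and 0.14 for numbers 1 to 4, and not every array correlated best with its own number, so the numbers were not taken to pair the animals. With the replicate block 0 members were called, and Me1 and Thrsp had an adjusted p of 0.122 each. Signals near or below the array medians, as of Scd2, Mogat1, Cidec and Pnpla3, limit what can be seen of those genes.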
